A study of Mus musculus with 2 samples.

Results

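Chemokine receptors decide where a leukocyte can go. The 9 described here are Ccr1, Ccr2, Ccr7, Cx3cr1, Cxcr2, Cxcr3, Cxcr4, Cxcr5 and Cxcr6, chosen by name, and all 9 were found among the 32285 genes counted. They were measured in CD45+ cells sorted from brown adipose tissue (BAT), as unique molecular identifiers (UMIs, each standing for 1 captured transcript) in 1 droplet library from control mice and 1 from AdipoΔ/Δ mice. Both groups were male C57Bl/6 mice of 16 weeks with the genotype AdipoQ-CreERT2 ATGLfl/fl, that is, with a tamoxifen-inducible Cre under the adiponectin promoter and a floxed ATGL gene (Pnpla2). In the study's text this line was also crossed with TdTomato and CX3CR1-gfp reporter mice, which the labels do not mention. The age is that of the sample labels, and the study's text gives a younger one. The control mice received vehicle. The AdipoΔ/Δ mice received 200 µL of tamoxifen at 10 mg/ml by intraperitoneal injection every 2 days for 1 week, followed by 2 weeks of rest. The vehicle group received no tamoxifen, so an effect of tamoxifen itself and one of the deletion cannot be told apart. The promoter is active in adipocytes and not in leukocytes, and in the sorted cells Pnpla2 stood at 37.1 CPM (counts scaled to a total of 1e6 UMIs) in the control and 42.2 CPM in the AdipoΔ/Δ library. How many mice were pooled for a library is not given in the sources used here. With 1 library per condition there is no replicate check, so values carry counting intervals only and no test was made.

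A chemokine receptor is a membrane protein that couples to inhibitory G proteins and steers a cell up a gradient of its ligand. CCR2 and CX3CR1 are known for the traffic and patrol of monocytes, CXCR2 and CCR1 for the recruitment of neutrophils and macrophages, and CXCR4 for holding leukocytes in the bone marrow. CCR7 and CXCR5 bring lymphocytes into lymph nodes and B cell follicles, whereas CXCR3 and CXCR6 mark lymphocytes that enter or stay in tissues.

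The filter kept 2279 control and 2016 AdipoΔ/Δ cells, with a median of 3678 and 3942 UMIs. The 9 receptors together gave 11789 of the control and 10510 of the AdipoΔ/Δ UMIs, or 0.110% and 0.0929%. Joint clustering without any chemokine receptor among its features gave 17 clusters, named from marker lists that hold no receptor, and "like" in a name marks a match to such a list. Ptprc, which encodes CD45, was detected in 80.4% of kept cells in both libraries. In the same cells, 9 adipocyte markers summed to 36.4 and 65.9 CPM in the control and AdipoΔ/Δ library, 5 fibroblast markers to 8.83 and 29.1 CPM, 5 endothelial markers to 19.6 and 17.1 CPM, and 5 erythroid markers to 1092 and 8.93 CPM. At most 1 gene of each list was at 0, and the part of these transcripts in the results was not tested. The libraries shared 4 barcodes. Levels below are the UMIs of a gene summed over a cluster and scaled to that total (CPM), with exact 95% Poisson intervals. Shares of cells with at least 1 UMI carry Clopper-Pearson intervals where given, and ratios of CPM conditional binomial intervals. All intervals cover counting error only. More transcripts per positive cell and a larger fraction of positive cells can give the same CPM. Shares of cells are therefore given beside the levels, also after thinning each cell to 1000 UMIs.

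With a threshold of 80%, the same receptors were mainly myeloid or mainly lymphoid in both libraries. At least that percent of the UMIs in myeloid and lymphoid clusters came from myeloid cells for 5 members (Ccr1, Ccr2, Cx3cr1, Cxcr2 and Cxcr4) and from lymphoid cells for 4 (Ccr7, Cxcr3, Cxcr5 and Cxcr6). All lineage shares in this paragraph leave out the dividing and unnamed clusters. The dividing cluster held 134 of 266 Cxcr3 UMIs in the control and 90 of 311 in the AdipoΔ/Δ library. For Cxcr6 it held 36 of 94 and 50 of 244. With a threshold of 90%, 3 members were mainly myeloid in the control and 2 in the AdipoΔ/Δ library, and 3 and 4 were mainly lymphoid. At a clustering resolution of 0.5, lymphoid clusters held 77.8% of the control Cxcr6 and 78.0% of the AdipoΔ/Δ Cxcr3 UMIs. Lymphoid clusters held 37.6% of all such UMIs in the control and 30.7% in the AdipoΔ/Δ library. Cxcr2 was the most myeloid member, with 0.569% and 0.538% of its UMIs in lymphoid clusters. Cxcr4 was the most mixed, with 17.7% and 14.2%. Ccr7 was the most lymphoid member of the control, with 99.4% of its UMIs in lymphoid clusters. In the AdipoΔ/Δ library it had 90.5%, below Cxcr5 (100.0%), Cxcr6 (97.4%) and Cxcr3 (90.95%).

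**Figure D1:**
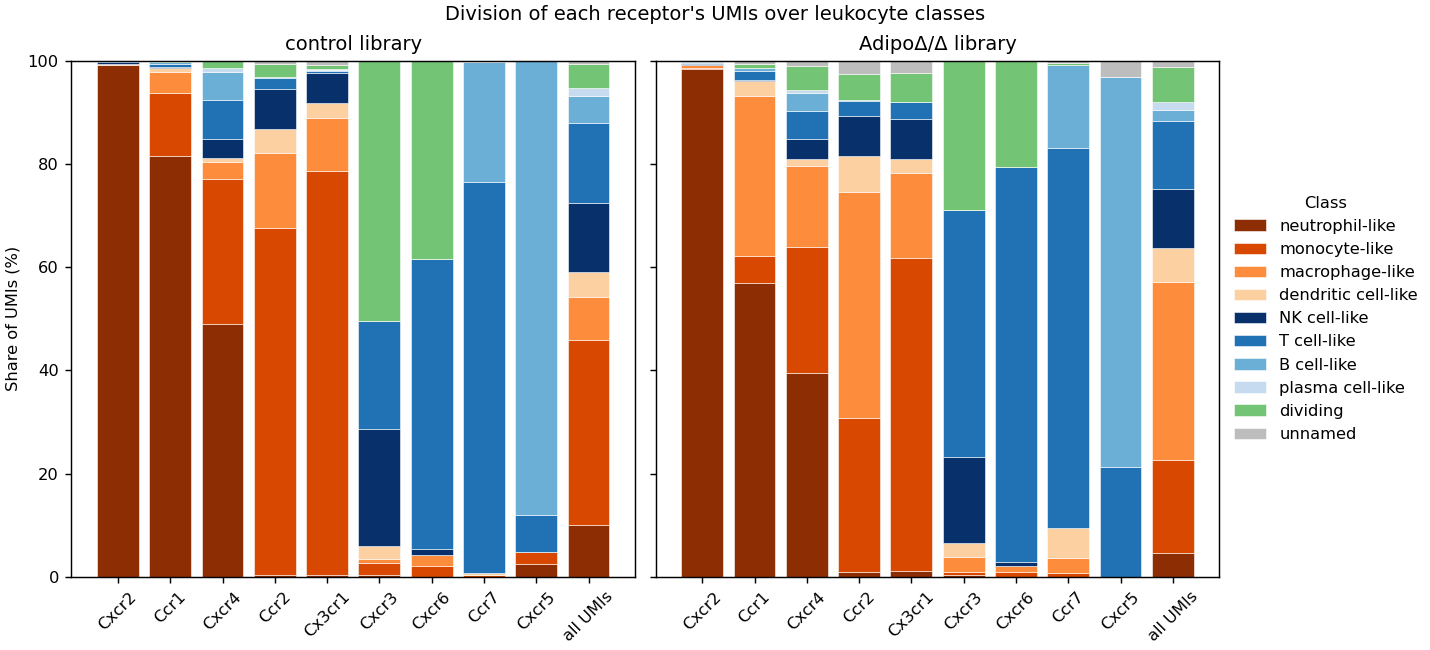
Stacked bars give the percent of each receptor's UMIs that came from each leukocyte class, with all UMIs of the library as the last bar, control and AdipoΔ/Δ side by side. The Cxcr2 bar is almost wholly neutrophil-like (99.1% and 98.5%), and the macrophage-like part of the Ccr2 bar is 14.5% in the control and 43.9% in the AdipoΔ/Δ library.

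Within lineages the 9 patterns were narrower than this split. The map of levels over clusters shows Cxcr2 and Ccr1 peaking in neutrophil-like cells, Ccr2 in Ly6C-high monocyte-like and macrophage-like cells, Cx3cr1 in Ly6C-low monocyte-like cells, Ccr7 in naive-like T cells and B cells, Cxcr5 in B cells, and Cxcr3 and Cxcr6 in dividing and T cell-like cells. Ccr2 and Cxcr4 were the widest spread, detected in every cluster of the AdipoΔ/Δ library and in all but 1 of the control library.

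**Figure D2:**
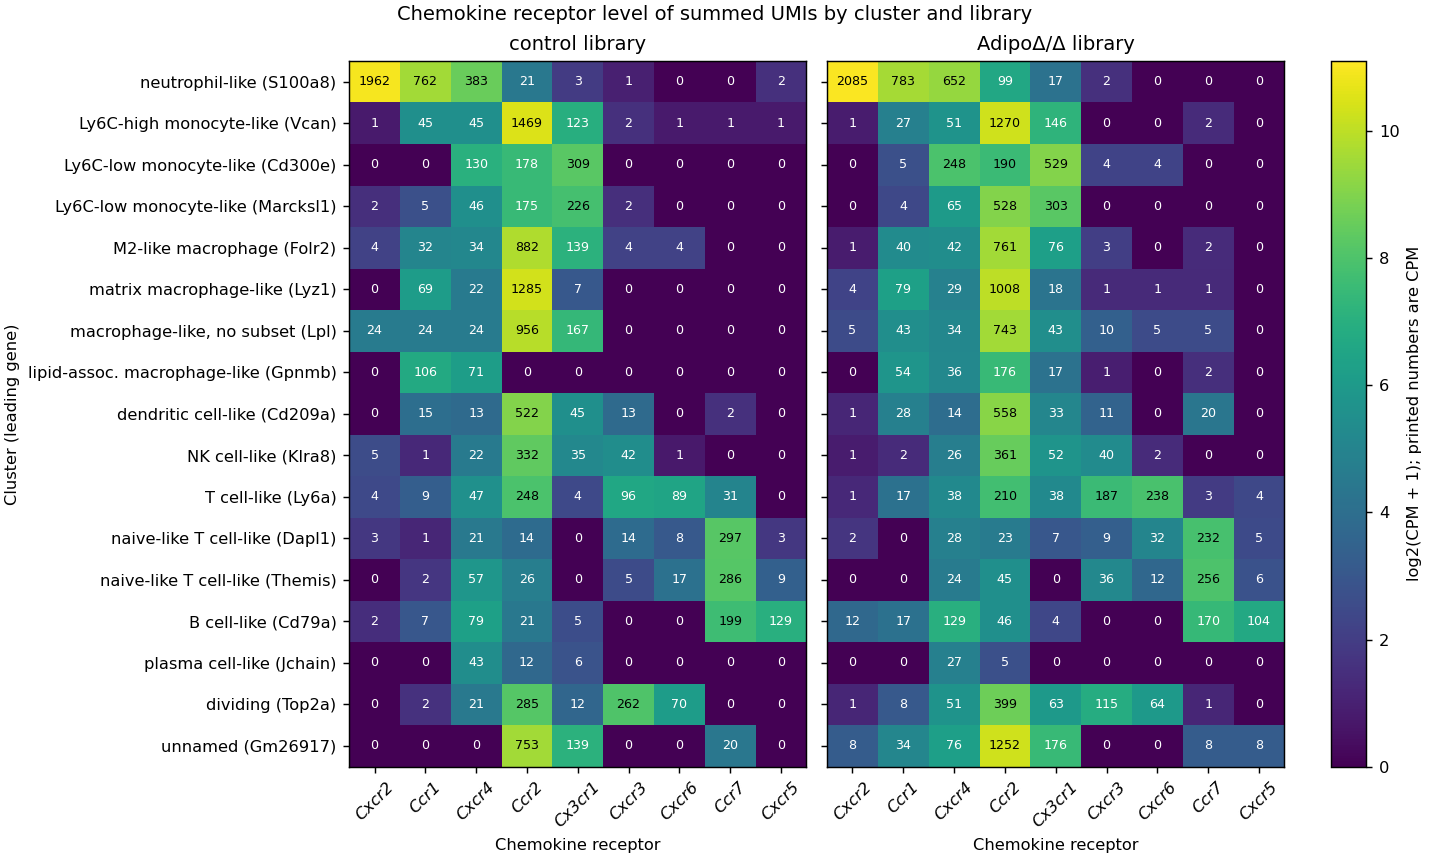
Color and printed numbers give the CPM of each of the 9 receptors (columns, color as log2(CPM + 1)) in each cluster (rows) of the control and the AdipoΔ/Δ library. The brightest cell of both maps is Cxcr2 in neutrophil-like cells, at 1962 and 2085 CPM, and most cells of the Cxcr5 and Ccr7 columns are dark, at or near 0.

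Cxcr2 encodes the receptor for CXCL1 and CXCL2 that draws neutrophils from bone marrow to tissue. In neutrophil-like cells (314 control and 173 AdipoΔ/Δ cells, led by S100a8) it measured 1962 CPM (1879 to 2048) in the control and 2085 CPM (1964 to 2212) in the AdipoΔ/Δ library. It was detected in 303 of 314 and 166 of 173 of these cells, or 96.5% and 96.0%, and in 84.4% and 86.3% after thinning. No other cluster held more than 7 of its UMIs. B cell-like cells, which should lack it, were positive in 0.382% and 1.09%, at a median depth of 1803 and 2101 UMIs against 2968.5 and 2720 in the neutrophil-like cells. Cxcr2 lies on chromosome 1 (74153989 to 74161246, plus strand, GRCm38, as for all positions here).

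Ccr1 encodes a receptor for CCL3, CCL5 and related ligands on neutrophils, monocytes and macrophages. It too was highest in neutrophil-like cells, at 762 CPM (710.1 to 816) and 783 CPM (709 to 862), in 85.0% and 79.8% of cells, against 1.15% and 2.17% of B cell-like cells. Both libraries overlapped within counting error for both receptors there. A second, lower level lay in macrophages. The matrix macrophage-like cluster, led by Lyz1, measured 69.0 CPM (41.5 to 108) and 78.9 CPM (64.6 to 95.3), and the M2-like cluster, led by Folr2, 32.5 and 40.2 CPM. In Ly6C-high monocyte-like cells, led by Vcan, Ccr1 was at 45.1 CPM (37.4 to 54.0) and 27.3 CPM (18.9 to 38.2), and it was 0 of 240 cells and 3 of 217 cells in the Ly6C-low cluster led by Cd300e. Macrophage-like cells were more numerous in the AdipoΔ/Δ library, and their part of all Ccr1 UMIs was 4.12% in the control and 31.0% in the AdipoΔ/Δ library.

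In single neutrophil-like cells, Cxcr2 and Ccr1 were detected together in 259 of 314 control cells (82.5%) and in 137 of 173 AdipoΔ/Δ cells (79.2%). The promoters of these 2 genes are shown because they were the members led by neutrophil-like cells by the widest margins, and they can be set side by side for the ETS core AGGAA, in either orientation (TTCCT), which PU.1 and related myeloid factors recognize. The 250 bases before the RefSeq start (GRCm38.p6) are written 5′ to 3′ on the gene's own strand, with each match in capitals. Ccr1 is at chr9:123968693-123968942 (minus strand) and Cxcr2 at chr1:74153744-74153993 (plus strand).
Ccr1: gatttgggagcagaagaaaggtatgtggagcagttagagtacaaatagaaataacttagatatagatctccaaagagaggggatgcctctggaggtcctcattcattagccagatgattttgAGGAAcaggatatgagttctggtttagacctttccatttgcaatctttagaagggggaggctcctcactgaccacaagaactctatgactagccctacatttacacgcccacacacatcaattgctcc
Cxcr2: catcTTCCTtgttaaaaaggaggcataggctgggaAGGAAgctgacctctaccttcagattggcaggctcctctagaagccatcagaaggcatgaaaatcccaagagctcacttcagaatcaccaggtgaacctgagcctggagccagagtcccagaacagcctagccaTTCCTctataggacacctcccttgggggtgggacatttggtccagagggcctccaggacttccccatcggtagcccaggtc
The Ccr1 stretch holds 1 match and the Cxcr2 stretch 3. The letters are common, since 60.3% of the 32851 upstream sequences of this length hold them at least once, and so did 6 of the 7 members that had a sequence. A match describes the letters and is no evidence of binding.

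Cxcr4, the receptor for CXCL12 that retains neutrophils and their precursors in bone marrow and is gained by aged neutrophils, was highest in the same neutrophil-like cells. Its level was 383 CPM (346 to 422) from 408 UMIs in the control and 652 CPM (585 to 725) from 344 UMIs in the AdipoΔ/Δ library, a ratio of 1.70 (1.47 to 1.97). Positive cells made up 57.6% and 69.4%, and 31.9% and 44.8% after thinning. Cxcr2 and Cxcr4 were found together in 56.7% of control and 66.5% of AdipoΔ/Δ neutrophil-like cells. The AdipoΔ/Δ library thus had the higher Cxcr4 level here, whereas Cxcr2 in the same cells had a ratio of 1.06 (0.987 to 1.14). In the Cd300e-led Ly6C-low cluster, Cxcr4 measured 130.2 CPM (105 to 160.2) and 248 CPM (208 to 293), a ratio of 1.91 (1.45 to 2.52). In B cell-like cells it was 78.5 and 129 CPM, and the interval of their ratio excluded 1. In Ly6C-high monocyte-like cells it was 45.1 and 51.4 CPM, a ratio of 1.14 (0.827 to 1.56). No class is known to lack Cxcr4, so no share of free RNA can be set beside it.

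At a finer resolution of 2.0, neutrophil-like cells split into a cluster led by Lcn2 (201 control and 118 AdipoΔ/Δ cells) and one led by Ptgs2 (113 and 55 cells). Cxcr4 was higher in the Ptgs2-led cells of both libraries, at 668 CPM (571 to 777) against 293 CPM (257 to 333) in the control and 939 CPM (786 to 1114) against 548 CPM (477 to 627) in the AdipoΔ/Δ library. Ccr1 went in opposite directions. It was higher in Ptgs2-led cells of the control, with 1171 CPM (1042 to 1312) against 633 CPM (579.6 to 690.4), and lower in those of the AdipoΔ/Δ library, with 512 CPM (401 to 645) against 881 CPM (790.1 to 979.8).

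Ccr2 encodes the receptor for CCL2 through which classical monocytes leave the bone marrow and enter tissue. Ly6C-high monocyte-like cells (375 control and 174 AdipoΔ/Δ cells) had 1469 CPM (1423 to 1516) in the control and 1269.8 CPM (1208 to 1334) in the AdipoΔ/Δ library. A UMI was found in 89.3% and 87.4% of these cells, and in 65.5% and 62.6% after thinning, against 2.67% and 5.43% of B cell-like cells. An unnamed cluster led by Gm26917 (42 and 74 cells) had 753 CPM (533 to 1034) and 1252 CPM (1059 to 1469), the second level of the AdipoΔ/Δ library. Matrix macrophage-like cells had 1285 CPM (1154 to 1426) and 1008 CPM (955 to 1062) and 92.0% and 93.8% of cells positive. M2-like macrophages had 882 CPM (806 to 964) and 761 CPM (713 to 811), in 64.0% and 65.4% of cells. Set over the Ly6C-high level of the same library, the matrix cluster stood at 0.875 and 0.794 and the M2-like cluster at 0.601 and 0.599. The matrix ratio had an interval of 0.782 to 0.976 in the control and 0.738 to 0.854 in the AdipoΔ/Δ library. Both intervals lay below 1.

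The remaining macrophage clusters were mostly of 1 library. The cluster without a subset, led by Lpl, held 26 control and 149 AdipoΔ/Δ cells at a median of 1387.5 and 807 UMIs, and its Ccr2 level was 956 CPM (683 to 1301) and 743 CPM (630.3 to 870.0). Lipid-associated macrophage-like cells, led by Gpnmb, numbered 12 in the control and 83 in the AdipoΔ/Δ library. Their Ccr2 level was 176 CPM (152 to 203) in the AdipoΔ/Δ library, 0.139 of that in Ly6C-high cells, and the lowest of the 4 macrophage-like clusters there. None of the 12 control cells had a Ccr2 UMI, which allows up to 106 CPM. At the finer resolution, M2-like cells led by Lyve1 (55 and 113 cells) had 539 CPM (442 to 649.8) and 529.6 CPM (478 to 585). Aif1-led macrophage-like cells without a subset (69 and 79 cells) had 1218 CPM (1116 to 1327) and 1152 CPM (1068 to 1242). Within macrophages, Ccr2 thus ranged from levels near those of Ly6C-high monocytes down to that of the lipid-associated cells.

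Outside monocytes and macrophages, Ccr2 was found at 522 and 558 CPM in dendritic cell-like cells led by Cd209a, in 74.1% and 76.1% of cells, and at 332 and 361 CPM in NK cell-like cells led by Klra8, in 68.1% and 64.2% of cells. The T cell-like cluster led by Ly6a, which also held genes of group 2 innate lymphoid cells, had 248 and 210 CPM. Naive-like T cells had 18.0 and 32.6 CPM, about the level of the B cell-like cells at 20.9 and 45.7 CPM. At the finer resolution, Ccl4-led NK cell-like cells (152 and 124 cells) had 210.4 and 223 CPM. Ctla2a-led innate-like lymphocytes (91 and 84 cells) had 475 CPM (429 to 525) and 535 CPM (485 to 589.9), in 90.1% and 82.1% of cells. Together these clusters held more cells than the NK cell-like cluster (207 and 173 cells). The dividing cluster went from 51 and 66 to 17 and 32 cells, and which cells moved was not traced. ILC2-like cells led by Arg1 (34 and 27 cells) measured 630.5 CPM (499 to 786) and 576 CPM (445 to 735).

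Cx3cr1 encodes the fractalkine receptor, known for the survival and patrolling of non-classical monocytes. The Cd300e-led Ly6C-low cluster (240 and 217 cells) had 309 CPM (268 to 353) in the control and 529 CPM (469.9 to 594) in the AdipoΔ/Δ library. It was detected in 43.8% and 56.7% of these cells, and in 24.97% and 38.2% after thinning, against 1.15% and 1.09% of B cell-like cells. The second Ly6C-low cluster, led by Marcksl1 (101 and 56 cells), had 226 CPM (188 to 269.8) and 303 CPM (236 to 383). Ly6C-high cells had 123 CPM (110.2 to 137) and 146 CPM (126 to 169). The order from Ly6C-low to Ly6C-high was the same in both libraries. The separate intervals of the first 2 clusters overlapped slightly in the control only, which does not show that their levels were equal. M2-like macrophages had 139 CPM (109.7 to 174) and 75.6 CPM (61.1 to 92.5), while the matrix cluster was almost without Cx3cr1, at 7.26 CPM from 2 UMIs and 18.4 CPM from 25 UMIs. The labels do not say whether the mice of either library carried the CX3CR1-gfp allele. Its part in the Cx3cr1 levels and ratios was not tested.

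The label of the Marcksl1-led cluster held in part only. Ly6c2, which encodes Ly6C, measured 537 and 411 CPM there, between 1185 and 1686 CPM in the Vcan-led Ly6C-high cells and 7.31 and 29.2 CPM in the Cd300e-led cells. Its Ccr2 level was 175 CPM (142 to 214) in the control, close to 178 CPM (148 to 213) in the Cd300e-led cells, and 528 CPM (438 to 630.1) in the AdipoΔ/Δ library, where the Cd300e-led cells had 189.7 CPM (155 to 229.9). The Ccr2 and Cx3cr1 ratios of Ly6C-low cells are also given without it.

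Ccr2 and Cx3cr1 divided the monocytes in opposite directions. Ccr2 was 1469 CPM in Ly6C-high against 177 CPM in all Ly6C-low cells of the control, a ratio of 8.30 (7.24 to 9.55), and 1269.8 against 290.0 CPM in the AdipoΔ/Δ library, a ratio of 4.38 (3.81 to 5.06). Without the Marcksl1-led cluster the ratios were 8.23 and 6.69, and with every integration feature kept the ratios were 3.43 and 2.27. Cx3cr1 in Ly6C-high over Ly6C-low cells gave 0.453 (0.388 to 0.530) and 0.316 (0.263 to 0.379). Set the other way round, as Ly6C-low over Ly6C-high, Cx3cr1 was at 2.21 and 3.16, and at 2.50 and 3.62 without the Marcksl1-led cluster. Cxcr4 went with Cx3cr1, at 0.488 (0.374 to 0.636) and 0.265 (0.195 to 0.358), and Ccr1 with Ccr2, at 18.5 (6.19 to 91.1) from 119 and 3 UMIs and 5.32 (1.90 to 20.6) from 34 and 4 UMIs. These 4 members, the ones with at least 20 UMIs in this comparison, were past 2-fold in both libraries. With a mitochondrial limit of 2% the control ratio of Cx3cr1 in Ly6C-low over Ly6C-high cells was 1.95. Within the Ly6C-low cells, Cxcr4 in the Marcksl1-led cluster stood at 1.01 (0.629 to 1.57) and 1.26 (0.668 to 2.24) of the Ly6C-high level, and in the Cd300e-led cluster at 2.88 (2.17 to 3.83) and 4.83 (3.56 to 6.603). Of all genes with that many UMIs, 18.0% were past 2-fold in the control and 19.1% in the AdipoΔ/Δ library.

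**Figure D3:**
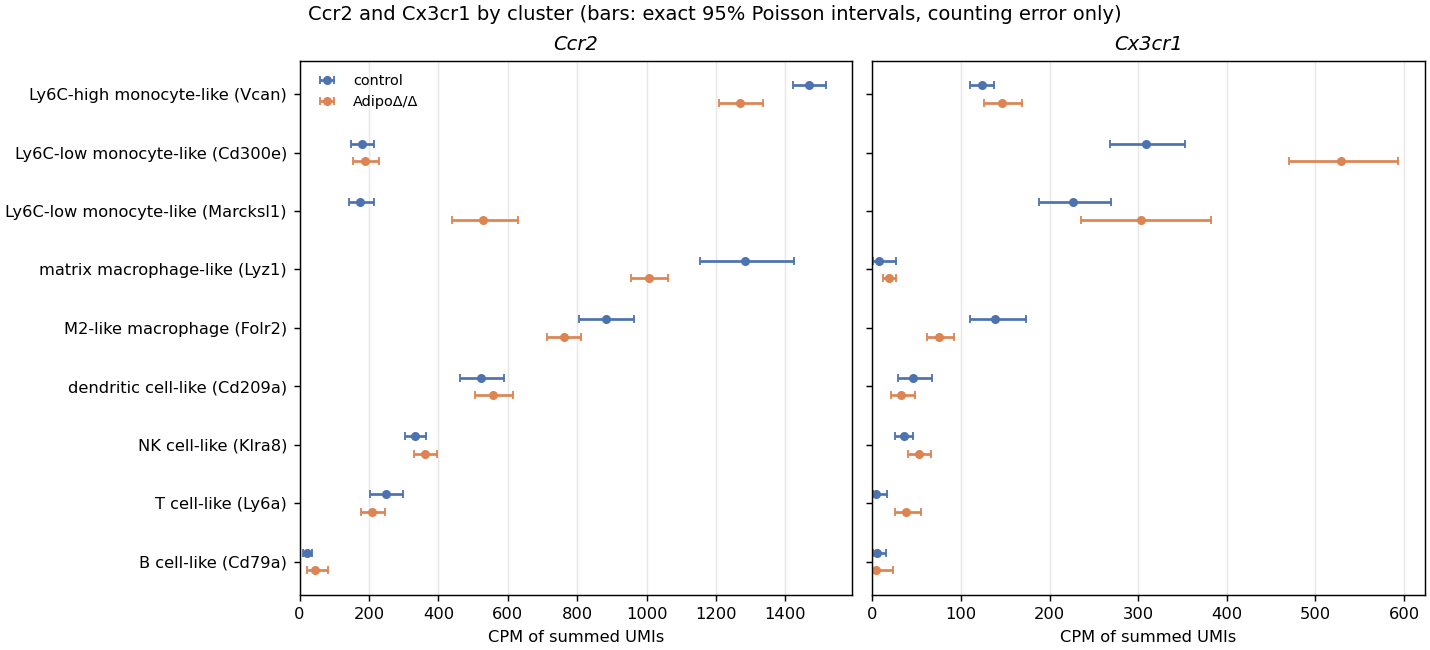
Points give the CPM of Ccr2 and of Cx3cr1 in 9 clusters for the control and the AdipoΔ/Δ library, with 95% Poisson intervals as bars. Ccr2 is highest in Ly6C-high monocyte-like and matrix macrophage-like cells and Cx3cr1 in both Ly6C-low clusters, and in the Marcksl1-led cluster the AdipoΔ/Δ point for Ccr2 lies at 528 against 175 CPM.

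Single cells often carried both receptors. Among Ly6C-high monocyte-like cells, 157 of 375 control cells (41.9%, 36.8 to 47.0) and 66 of 174 AdipoΔ/Δ cells (37.9%, 30.7 to 45.6) had UMIs of both Ccr2 and Cx3cr1. Cells with Ccr2 alone made up 47.5% and 49.4%, and cells with Cx3cr1 alone 1.07% and 2.30%. The Cd300e-led cells had both in 13.3% and 13.4%, and Cx3cr1 alone in 30.4% and 43.3%. Matrix macrophage-like cells were the purest in this respect, with Ccr2 alone in 88.0% and 90.4% and Cx3cr1 alone in none of 50 and none of 177 cells. These shares depend on depth, since thinning to 1000 UMIs left both receptors in 7.57% and 7.60% of Ly6C-high cells.

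Ccr7 encodes the receptor for CCL19 and CCL21 that brings naive lymphocytes and migrating dendritic cells into lymph nodes. Naive-like T cells formed 2 clusters, led by Dapl1 (210 and 94 cells) and by Themis (61 and 40 cells). Ccr7 was 297 CPM (260.2 to 337) and 232 CPM (189 to 282) in the former and 286 CPM (237 to 342) and 256 CPM (205 to 317) in the latter. It was found in 120 of 210 and 47 of 94 Dapl1-led and in 45 of 61 and 27 of 40 Themis-led cells. Neutrophil-like cells had it in 0 of 314 and 0 of 173. A floor of 3 UMIs lies at 2.81 and 5.69 CPM there, and the exact upper limits at 3.46 and 6.99 CPM. B cell-like cells came next, with 199 CPM (164 to 239) and 170.5 CPM (122 to 231). These 3 clusters held nearly all of its UMIs. The other T cell-like cells, led by Ly6a, had 31.2 CPM from 14 UMIs and 2.82 CPM from 2 UMIs. In dendritic cell-like cells there was 1 control UMI, and 15 AdipoΔ/Δ UMIs from 5 of 113 cells.

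Cxcr5 encodes the receptor for CXCL13 that brings B cells into follicles. It was sparse, with 84 UMIs in the control and 33 in the AdipoΔ/Δ library, of which 88.1% and 75.8% came from B cell-like cells. There it measured 129 CPM (101 to 162) and 104 CPM (67.3 to 153), in 22.5% and 20.7% of 262 and 92 cells, against 0.637% and 0 of 173 neutrophil-like cells. The T cell-like clusters together held 6 and 7 UMIs. B cell-like cells with both Ccr7 and Cxcr5 made up 10.7% (28 of 262) and 8.70% (8 of 92).

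Cxcr3, the receptor for CXCL9 and CXCL10, is carried by effector T cells and NK cells. The dividing cluster led by Top2a, a mixed group of 51 and 66 cells, had 262 CPM (219 to 310.0) in the control and 115 CPM (92.5 to 141) in the AdipoΔ/Δ library, in 70.6% and 60.6% of cells. T cell-like cells led by Ly6a (120 and 142 cells) had 96.0 CPM (69.4 to 129) and 187 CPM (157 to 222), in 23.3% and 35.9% of cells, and NK cell-like cells 42.2 and 40.1 CPM. Neutrophil-like cells were positive in 0.318% and 0.578%, and B cell-like cells had no Cxcr3 UMI. At the finer resolution, the innate-like lymphocytes held much of it, with 188 CPM (159 to 220.0) and 143 CPM (118 to 173) in 57.1% and 69.0% of cells, whereas Ccl4-led NK cell-like cells had 13.6 and 18.7 CPM. The dividing cells then numbered 17 and 32, with 173 and 39.8 CPM.

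Cxcr6 binds CXCL16 and is a mark of T cells and innate lymphoid cells that reside in tissue. Its level in T cell-like cells led by Ly6a was 89.3 CPM (63.8 to 122) from 40 UMIs in the control and 238 CPM (203 to 277) from 169 UMIs in the AdipoΔ/Δ library. It was detected in 22.5% and 43.0% of these cells, and in 8.73% and 17.8% after thinning, against 0 of 314 and 0 of 173 neutrophil-like cells. The dividing cluster had 70.3 and 63.9 CPM, and NK cell-like cells 0.703 and 1.54 CPM, so that Cxcr6 and Cxcr3 parted in NK cells. At the finer resolution, ILC2-like cells had Cxcr6 at 144 CPM (85.1 to 227) and 408 CPM (299 to 544) and no Cxcr3 UMI in 34 and 27 cells, while Trac-led T cells (85 and 115 cells) had both, with Cxcr6 at 68.1 CPM (42.7 to 103) and 205 CPM (169.6 to 246) and Cxcr3 at 130.1 CPM (93.8 to 176) and 230.0 CPM (192 to 273). The higher Cxcr6 of the AdipoΔ/Δ library was thus seen in both of these groups.

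**Figure D4:**
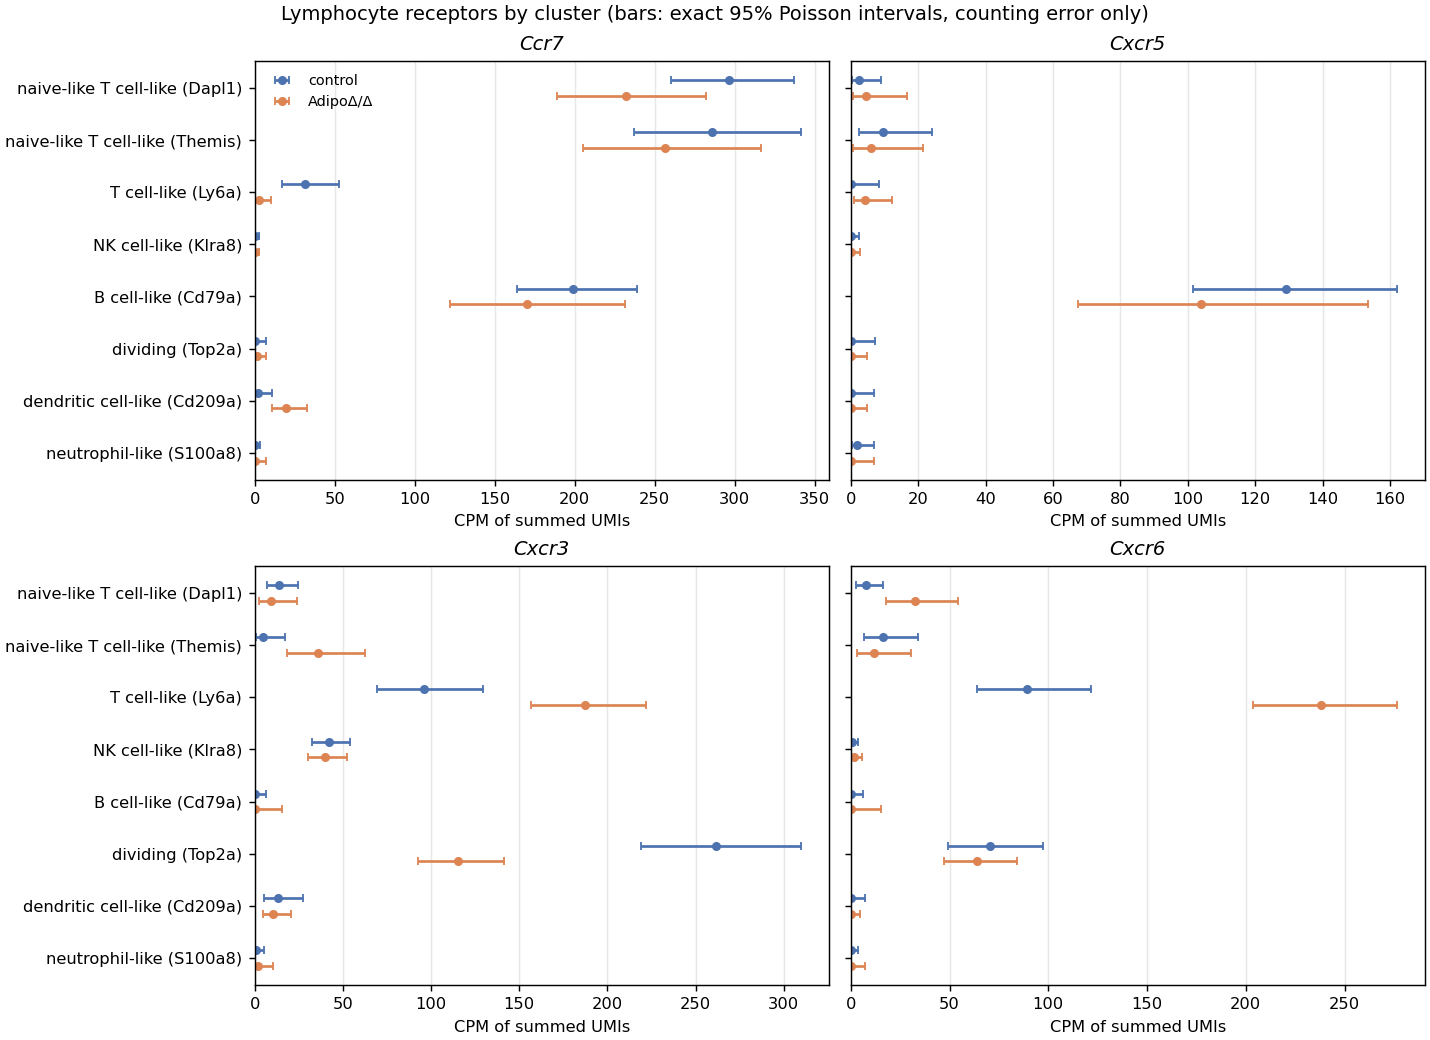
Points give the CPM of Ccr7, Cxcr5, Cxcr3 and Cxcr6 in 8 clusters for the control and the AdipoΔ/Δ library, with 95% Poisson intervals as bars. Ccr7 is confined here to both naive-like T clusters and B cells apart from low values, Cxcr5 to B cells, and Cxcr3 and Cxcr6 are highest in dividing and Ly6a-led T cell-like cells.

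Homing and tissue receptors split the T cells. Naive-like over other T cell-like cells gave a Ccr7 ratio of 9.38 (5.52 to 17.3) in the control and 86.2 (23.5 to 717), with 2 UMIs on the lower side, in the AdipoΔ/Δ library. Cxcr3 was at 0.111 in both libraries, Cxcr6 at 0.119 and 0.0987, and Ccr2 at 0.0727 and 0.155. In the control 4 of 5 tested members were past 2-fold, against 18.3% of all genes, and in the AdipoΔ/Δ library 5 of 6, against 23.8%. Cxcr4 was the member within 2-fold in both, at 0.716 and 0.686. The median of all genes was -0.35 and -0.46 on the log2 scale in this comparison, so that the naive-like side was lower for most genes. Ccr7 with Cxcr3 was found in 3.33% and 1.06% of Dapl1-led, 1.64% and 5.0% of Themis-led and 3.33% and 1.41% of Ly6a-led cells. Cells with either receptor were themselves few in some clusters. In the control, 7 of the 10 Dapl1-led cells with Cxcr3 also had Ccr7, and 4 of the 7 Ly6a-led cells with Ccr7 also had Cxcr3. Cxcr3 with Cxcr6 was found in 8 of 120 control cells (6.67%) and 26 of 142 AdipoΔ/Δ cells (18.3%) led by Ly6a, and in 29.4% and 27.3% of dividing cells.

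The next comparison asked how the level of each receptor within a class differed between AdipoΔ/Δ and control cells, with the share of all genes past 2-fold in the same cells as background. The median of all genes lay between 0.04 and 0.29 on the log2 scale in the 14 groups of cells compared, on the side of the AdipoΔ/Δ library, and was largest in neutrophil-like cells. In all monocyte-like cells together, 0 of 4 tested members were past 2-fold, against 4.65% of genes. Ccr2 had a ratio of 0.844 (0.798 to 0.892) there and Cx3cr1 one of 1.57 (1.40 to 1.76). In Ly6C-high cells alone, 0 of 4 were past 2-fold (5.38% of genes), with Ccr2 at 0.865 (0.815 to 0.917), Cx3cr1 at 1.19 (0.983 to 1.43) and Ccr1 at 0.605 (0.401 to 0.892). In Cd300e-led cells, 0 of 3 were past 2-fold (6.01% of genes), with Cx3cr1 at 1.71 (1.43 to 2.06) and Ccr2 at 178 and 189.7 CPM. In Marcksl1-led cells, Ccr2 was the 1 of 3 past 2-fold (10.8% of genes), at 3.01 (2.29 to 3.98).

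In all macrophage-like cells together, 1 of 4 tested members was past 2-fold, against 13.4% of genes. This was Cx3cr1, with 95.6 CPM in the control and 37.7 CPM in the AdipoΔ/Δ library, a ratio of 0.394 (0.300 to 0.520). With the subset shares held equal it was 0.647, and with every integration feature kept 0.878. Ccr2 was 981 and 681 CPM, a ratio of 0.694 (0.643 to 0.7501), but 0.866 with equal subset shares and 0.876 without the Lpl-led and lipid-associated clusters, which were mostly of the AdipoΔ/Δ library. Within subsets, Ccr2 had a ratio of 0.784 (0.697 to 0.884) in matrix and 0.863 (0.773 to 0.964) in M2-like cells, and Cx3cr1 one of 0.544 (0.398 to 0.745) in M2-like cells. None of 4 members was past 2-fold in M2-like cells (14.3% of genes), and in matrix cells 1 of 4 was (14.4% of genes), Cx3cr1, from 2 and 25 UMIs.

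**Figure D5:**
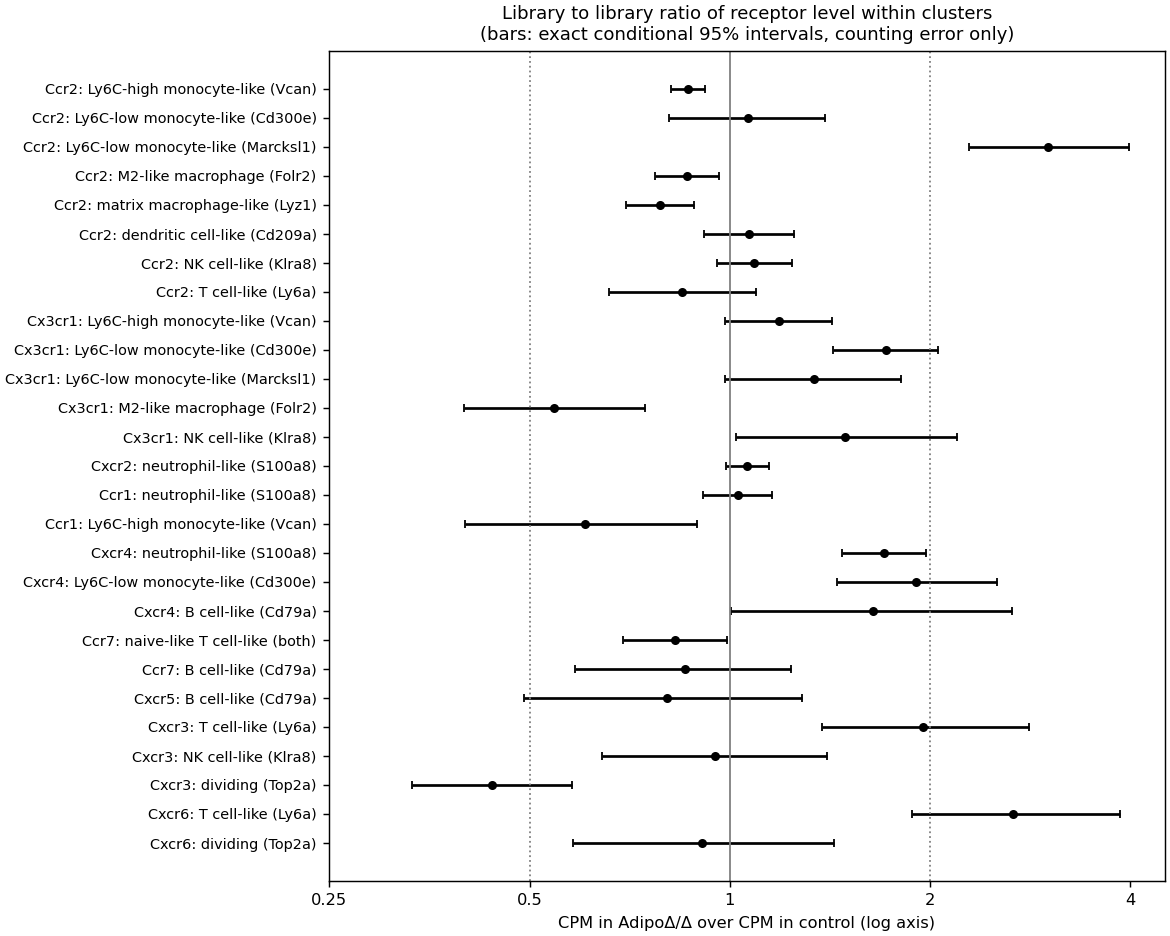
Points give the ratio of AdipoΔ/Δ over control CPM on a log axis for a chosen set of receptor and cluster pairs. Bars are 95% conditional binomial intervals and dotted lines lie at 0.5 and 2. Most of the points drawn lie between the lines. Among those beyond them are Ccr2 in Marcksl1-led cells (3.01), Cxcr6 in T cell-like cells (2.67) and Cxcr3 in dividing cells (0.439). Some tested pairs past 2-fold are not drawn, such as Ccr2 in neutrophil-like cells (4.78).

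Among neutrophil-like cells, 1 of 4 tested members was past 2-fold (13.2% of genes). It was Ccr2, with 20.6 CPM from 22 UMIs in 15 control cells and 98.6 CPM from 52 UMIs in 12 AdipoΔ/Δ cells, a ratio of 4.78 (2.85 to 8.26). At the finer resolution, 40 of the 52 UMIs lay in 4 cells of the Ptgs2-led cluster, so few cells carried this difference. Cxcr4, with its ratio of 1.70, stayed inside 2-fold.

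Among lymphoid cells, 2 of 5 tested members were past 2-fold in T cell-like cells led by Ly6a (11.7% of genes), Cxcr6 with a ratio of 2.67 (1.88 to 3.86) and Cx3cr1 with 8.52 (2.14 to 73.9) from 2 and 27 UMIs. Cxcr3 there had a ratio of 1.95 (1.37 to 2.82). Naive-like T cells had 1 of 5 past 2-fold (5.82% of genes), Cxcr6 with 2.21 (1.02 to 4.90), and Ccr7 at 0.828 (0.690 to 0.991). B cell-like cells had 1 of 4 (9.0% of genes), Ccr2 from 12 and 11 UMIs with an interval that included 1, and Ccr7 and Cxcr5 had ratios of 0.857 (0.585 to 1.23) and 0.805 (0.490 to 1.28). NK cell-like cells had 0 of 4 (4.13% of genes), with Cx3cr1 at 1.49 (1.02 to 2.19), and dendritic cell-like cells 0 of 3 (9.09% of genes). In the dividing cluster 3 of 5 were past 2-fold (16.2% of genes). These were Cxcr3 at 0.439 (0.333 to 0.578), Cxcr4 at 2.38 (1.20 to 5.14) and Cx3cr1, with 11.7 and 62.6 CPM. Markers of other lineages also differed in this cluster. H2-Ab1, a class II gene of antigen-presenting cells, was at 78.1 CPM in 13.7% of control and 1864 CPM in 57.6% of AdipoΔ/Δ cells, and Ly6c2 at 1037 and 399 CPM. The integrin gene Itgam, a mark of myeloid cells, was at 1.95 and 77.9 CPM. The part of these lineages in the ratios was not tested.

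Whole-library levels were set beside levels with the cluster shares held equal, since the makeup of the sorted cells differed between the libraries. Ccr7 was 45.6 CPM in the control and 22.5 CPM in the AdipoΔ/Δ library, a ratio of 0.495, but 0.843 with cluster shares held equal. Cxcr2 had a ratio of 0.503, and 1.06 with equal shares, and Ccr1 0.692 and 0.994. For Cxcr4 and Cx3cr1 it was the reverse, with whole-library ratios of 0.997 and 1.01 and ratios of 1.46 and 1.31 at equal shares. Cxcr6 kept a higher AdipoΔ/Δ level either way, at 2.47 and 1.84. Ccr2 had 565 and 536 CPM, and its source differed most, since monocyte-like cells gave 67.3% of its control and 29.8% of its AdipoΔ/Δ UMIs.

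Ligands of these receptors were also counted in the sorted cells. Of the ligands of each receptor, the one with most UMIs is given. Ccl2, for Ccr2, had 98 control and 1146 AdipoΔ/Δ UMIs, at 432 CPM in lipid-associated and 228 CPM in matrix macrophage-like cells of the AdipoΔ/Δ library, against 32.7 CPM in matrix cells of the control. Cxcl2, for Cxcr2, was highest in the neutrophil-like cells themselves, at 394 and 1463 CPM. Ccl5, for Ccr1, had 31093 and 29511 UMIs, mostly in NK cell-like cells. Cxcl10, for Cxcr3, was at 58.8 and 238 CPM in Ly6C-high monocyte-like cells, and Cxcl16, for Cxcr6, at 59.5 and 154 CPM in M2-like macrophages. The ligands made by stromal cells were near absent, with 16 and 56 UMIs of Cxcl12, 5 UMIs of Cx3cl1 and 4 of Cxcl13 in both libraries together, and none of Ccl19.

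Of the other chemokine receptor genes, those given here reached 100 UMIs over both libraries. Ccrl2, a receptor that binds chemerin and does not signal, was at 14.1 CPM (7.87 to 23.2) in control and 108 CPM (81.8 to 139.98) in AdipoΔ/Δ neutrophil-like cells, a ratio of 7.68 (4.29 to 14.6). Ccr9, the gut-homing receptor, had 59 and 54 UMIs. On chromosome 9, where 5 of the 9 members lie, Ccr1 (123962124 to 123968692) and Ccr2 (124101950 to 124113557) are 133.3 kb apart. Their levels did not follow this closeness, as Ccr1 was highest in neutrophil-like and Ccr2 in Ly6C-high monocyte-like cells. The span of Cx3cr1 (119901616 to 120069879) overlaps other genes on both strands. Whole spans were compared and not exons, so whether reads of those genes were counted as Cx3cr1 was not tested.

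Genes that work with these receptors were read from 2 lists, 24 genes of receptor signalling and 15 of adhesion, egress and homing. Between Ly6C-high and Ly6C-low monocyte-like control cells, 2 of 22 tested signalling genes were more than 2-fold higher in Ly6C-high cells and 1 lower, against 18.0% of all genes in either direction. Gng2, a G protein subunit, was at 123 against 17.1 CPM, and Grk3, a kinase that switches off active receptors, at 40.6 against 248 CPM. Of 12 homing genes, 3 were higher and 6 lower, among them Itgax, an integrin, at 1.14 against 85.3 CPM and S1pr5, which guides egress of patrolling monocytes, at 7.21 against 116 CPM. The AdipoΔ/Δ library gave 3 of 23 signalling genes higher and 3 lower, and 4 of 13 homing genes higher and 5 lower, against 19.1% of all genes, with S1pr5 at 4.82 against 139.9 CPM. Some genes of this list, such as Itgam, are also among the markers that named clusters.

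Between naive-like and other T cell-like control cells, 1 of 20 signalling genes was higher and 5 lower, against 18.3% of all genes past 2-fold, with Rgs1, a brake on receptor signals, at 5.73 against 51.3 CPM. Of 12 homing genes 3 were higher and 4 lower, with the integrin Itga1 at 0.819 against 53.6 CPM and S1pr1, which guides egress, among the higher. In the AdipoΔ/Δ library 1 of 21 signalling genes was higher and 6 lower (Rgs1 at 14.4 against 125 CPM), and 3 of 12 homing genes higher and 6 lower, against 23.8% of all genes. Between libraries, in all monocyte-like cells, 1 of 23 signalling genes was past 2-fold against 4.65% of all genes. It was Rgs1, at 0.517 CPM in the control and 16.8 CPM in the AdipoΔ/Δ library. In macrophage-like cells (13.4% of all genes) it was 2 of 23, Rgs1 at 13.3 and 175 CPM and Grk3 at 44.4 and 20.0 CPM, and 4 of 12 homing genes, with the integrin Itgal at 217 and 33.8 CPM. In T cell-like cells led by Ly6a (11.7% of all genes), 3 of 12 homing genes were lower in the AdipoΔ/Δ library, among them S1pr1, at 114 and 36.6 CPM.

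The genes whose levels ran most like those of each receptor were ranked over 31 points, the clusters of both libraries with enough cells, among 7452 genes, by Pearson's r of log2(CPM + 1). The points share 2 libraries, so r is a description. Cxcr2 was closest to Mirt2 (0.928) and Hdc (0.891), Cx3cr1 to Adap1 (0.913), Ccr2 to Ahnak (0.943), Ccr1 to Adam8 (0.789) and Cxcr4 to Snrk (0.854). Among lymphoid receptors, Cxcr3 was closest to Cd160 (0.870) and Tbx21 (0.846), Cxcr6 to Cd3e (0.886), Cxcr5 to Fcmr (0.811) and Ccr7 to BE692007 (0.827). Among members themselves, Cxcr3 and Cxcr6 were the closest pair (0.813), followed by Ccr7 and Cxcr5 (0.711), Ccr2 and Cx3cr1 (0.693) and Ccr1 and Cxcr2 (0.662), and Ccr7 and Cx3cr1 the most opposed (-0.683). Hdc and Cd3e are among the markers that named clusters.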

How the data were processed

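CD45+ DAPI- cells sorted from BAT were captured as 1 3′ droplet library per condition. The authors aligned reads and counted UMIs with Cell Ranger 4.0.0 on mm10, and deposited raw counts per gene and barcode for 2597 control and 2381 AdipoΔ/Δ barcodes (11327187 and 12028844 UMIs). Receptors, gene lists, marker lists and comparisons were chosen with earlier results of these data known. Pf4 was removed from the Cxcr2 ligands after its values were seen.

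Kept barcodes had 200 or more genes and no more than 10% of UMIs from mitochondrial genes (87.8% and 84.7%). A limit of 2%, as in the study's methods, would have left 51.4% and 37.7% of barcodes. Scrublet (Scanpy 1.11.5, expected rate of 2%) marked 0.237% and 0.129% of barcodes, too few to have worked, and these were not removed. Cells were normalized with sctransform 0.4.2, integrated by anchors and clustered in Seurat 5.3.0 (R 4.3.3), on 20 components at a resolution of 1.0. Of 2000 features, 30 were dropped (chemokine receptors and genes that the study names), leaving 1970. Clusters were named by marker score with at least 3 markers detected in 10% of cells, by a rule set after seeing the data. Clusters kept out of every lineage, dividing or unnamed, held 4.08% and 6.94% of cells. The smallest clusters had 12 and 8 cells.

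Intervals were exact (SciPy 1.17.1). Thinned shares are exact expectations over draws of 1000 UMIs, without shallower cells. Where a floor is given for a level of 0, it is the CPM of 3 UMIs, which lies below the exact upper limit. Comparisons across genes used at least 20 UMIs over both sides and a 2-fold limit, with no test. The ratios and intervals were checked on simulated Poisson counts, which have no spread between cells or mice. That check covers the calculation and not whether the intervals suit these data. Named genes were the members, other receptors with at least 100 UMIs, the ligand with most UMIs per member, the 3 genes most like each member, cluster leaders, and the 2 largest differences per list, of which some are not reported here. Ly6c2, Pnpla2, S1pr1, Itgam and Hdc were named outside this rule or chosen after their values were seen. Alternatives changed the mitochondrial and gene limits, doublets, features, resolution, components, integration, scaling, denominators, subset shares and thresholds. Gene positions are from GENCODE vM21 and upstream sequences from RefSeq. Reads, surface protein and columns of the study's own analysis were not used.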

Additional observations from a re-analysis of the deposited data

Results flagged for a closer look

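Some receptors differed between libraries in opposite directions in different cells. The differences between the ratios were not tested, as each rests on 1 library per condition. Ccr2 was higher in the AdipoΔ/Δ library in Ly6C-low monocyte-like cells led by Marcksl1, with a ratio of 3.01, and lower in all macrophage-like cells, with 0.694. Cx3cr1 was higher in Ly6C-low monocyte-like cells led by Cd300e, with 1.71, and lower in all macrophage-like cells, with 0.394. The latter was 0.647 with equal subset shares and 0.878 with every integration feature kept, and in matrix macrophage-like cells the ratio was 2.54 (0.633 to 22.1), from 2 and 25 UMIs. Cxcr3 was higher in T cell-like cells led by Ly6a, with 1.95, and lower in the dividing cluster, with 0.439.

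Receptor transcripts were also present in the 318 control and 365 AdipoΔ/Δ barcodes that the filter left out. In those of the control, Cxcr2 measured 649.7 CPM, Ccr1 228 CPM and Cxcr4 120.2 CPM, each above its level over all kept control cells (196, 92.6 and 77.4 CPM). In the left-out AdipoΔ/Δ barcodes the levels were 49.1, 56.1 and 74.4 CPM, each below that over all kept AdipoΔ/Δ cells (98.7, 64.1 and 77.1 CPM).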

How the results depend on the processing

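No paired analysis was possible because there was 1 library per condition. No value changed direction. Of the alternative values of the results that answer a comparison, 155 were called the same and 31 moved, and of the other values 171 and 49. Values with a counting interval were called the same if they lay inside that of the main value. Counts of members and shares of genes past 2-fold had no such interval and were judged by a fixed fold limit, so these totals are not a measure of counting error alone. In the control, Ccr2 in Ly6C-high over Ly6C-low cells was 6.95 with up to 5% mitochondrial UMIs allowed, 7.06 at a resolution of 0.5, 6.71 on 30 components, 7.01 without integration and 3.43 with all features. In the AdipoΔ/Δ library it was 5.41 with a limit of 2%, 6.07 at a resolution of 0.5, 5.35 without integration, 2.27 with all features, 5.07 as a mean over cells, 5.38 after thinning and 6.69 without the Marcksl1-led cluster. Cx3cr1 in Ly6C-low over Ly6C-high AdipoΔ/Δ cells was 2.58 with all features, 4.12 as a mean over cells and 3.86 after thinning, against 3.16. Ly6C-high cells with both receptors made up 51.4% of the control with a limit of 2%, and 7.57% and 7.60% in the 2 libraries after thinning. AdipoΔ/Δ over control, Ccr2 in macrophages was 0.869 as a mean over cells, 0.838 after thinning, 0.866 with equal subset shares and 0.876 without the Lpl-led and lipid-associated clusters. Cx3cr1 in macrophages was 0.878 with all features and 0.647 with equal subset shares. Ccr2 in monocytes was 0.774 with a limit of 2%, 0.759 as a mean over cells, 0.794 after thinning, 0.920 with equal subset shares and 0.781 without the Marcksl1-led cluster. With a lineage threshold of 90%, 3 control and 2 AdipoΔ/Δ members were mainly myeloid. Between 6 and 9 members kept the class with their highest level. For Ccr2 this was macrophage-like in place of monocyte-like cells with a limit of 2%, as a mean over cells and after thinning. For Ccr7 it was T in place of B cell-like cells in 5 alternatives. For Cxcr3 and Cxcr6 it was innate-like lymphocyte, ILC2 or NK cell-like in place of T cell-like cells in some. The class of Ccr1, Cx3cr1, Cxcr2, Cxcr4 and Cxcr5 was kept in each alternative run. The alternatives without single clusters were chosen after seeing the data. Beyond the construction of each alternative, the cause was not tested.

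Depth limits Cxcr5, Cxcr6 and Ccr7 outside their main clusters, where values rest on a few UMIs. The share of all genes past 2-fold in the monocyte comparison was 38.6% with at least 1 UMI and 14.2% with at least 100 in the control, and 38.1% and 16.3% in the AdipoΔ/Δ library. No value here has an error between mice.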

Other observations

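Most BAT leukocytes had a UMI of at least 1 of the 9 receptors. No receptor was detected in 24.2% of control and 20.3% of AdipoΔ/Δ cells, and at least 2 were detected in 39.8% and 39.3%. Neutrophil-like cells had at least 2 in 89.8% and 89.0%, dividing cells in 68.6% and 78.8%, and Ly6C-high monocyte-like cells in 59.7% and 54.0%. Only 11.9% of Dapl1-led control cells had at least 2. These shares follow depth as well as receptor use.

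T cell-like cells led by Ly6a were also divided by Cd4 and by Cd8a or Cd8b1 UMIs, a division added after seeing the data. Cxcr6 in cells with Cd8 UMIs only was 84.1 CPM (44.8 to 144) in 22 control cells and 242 CPM (192 to 302) in 37 AdipoΔ/Δ cells. In cells with neither it was 84.3 CPM (52.9 to 128) and 261 CPM (206 to 327), and in cells with Cd4 only 153 CPM (49.5 to 356) and 155 CPM (86.9 to 256), from 14 and 18 cells. Cxcr3 in cells with Cd4 only was 305 CPM (146 to 561) and 300.1 CPM (201 to 431), in cells with Cd8 only 90.6 CPM (49.5 to 152) and 211 CPM (164 to 267), and in cells with neither 72.8 CPM (43.9 to 114) and 122 CPM (84.9 to 169.6). Among naive-like T cells, Ccr7 was 260.0 CPM (225 to 299) and 261 CPM (220.2 to 308) in cells with Cd8 only, and 406 CPM (318 to 511) and 209.7 CPM (133 to 315) in cells with Cd4 only.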
